A study of Homo sapiens with 8 samples.

Results

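The insulin-like growth factor (IGF) binding proteins IGFBP2 to IGFBP7, the receptors IGF1R and IGF2R and the docking protein IRS1 were followed across 2 human breast cancer cell lines given the steroid dehydrogenase gene HSD17B14. The genes were taken as every probe set annotated with exactly 1 gene symbol that was among these 9 names, which gave 10 probe sets of the 8746 non-control probe sets on the array. IGF1R had 2 probe sets and every other gene had 1. Of the 10, 8 reached the minimum signal for testing, and the IGFBP5 probe set and the second IGF1R probe set did not. The arrays were Affymetrix HG-Focus arrays of total RNA. The HSD17B14 group of ZR75-1 cells, a line labelled ER-positive, was set against ZR75-1 cells given the same vector with no insert, and the HSD17B14 group of SKBR3 cells, labelled ER-negative, was set against SKBR3 cells given that vector. All 4 groups had 2 arrays, came from transient transfection with FuGene-6 in phenol-red-free medium with serum, and were harvested 48 h later. The labels do not say whether the arrays of a group came from separate cultures, and the p-values therefore cover the scatter from array to array and nothing wider.

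The plasmid's own gene and the cell line labels were examined first. HSD17B14 had signals of 107.5 and 135.3 in ZR75-1 cells with the HSD17B14 plasmid, against 17.8 and 2.1 with vector, and 650.7 and 743.6 in SKBR3-labelled cells with the plasmid, against 2.0 and 4.2 with vector. Of the 9 luminal markers listed, all 9 were called higher in ZR75-1 than in SKBR3-labelled cells with either plasmid (limma adjusted p under 0.05). Over all tested probe sets 15.1% were called higher on the HSD17B14 arrays and 19.6% on the vector arrays. ERBB2, the receptor gene amplified in SKBR3 as usually described, ran from 95.9 to 226 in ZR75-1 and only from 25.9 to 46.8 in the SKBR3-labelled cells. VIM, a mesenchymal intermediate filament gene, ran from 3646 to 5326 in the SKBR3-labelled cells, while the other 7 stromal markers on the array summed to between 35.4 and 103 on every array. The second line is therefore called SKBR3-labelled here. In bulk RNA, fewer cells of a type and less RNA per cell cannot be told apart.

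IGF1 and IGF2 are secreted growth factors that act through IGF1R, a receptor tyrosine kinase, which passes the signal to docking proteins such as IRS1 and on to the PI3K-AKT and RAS-MAPK pathways. IGF2R, also the mannose-6-phosphate receptor, carries IGF2 to the lysosome. The IGF binding proteins hold IGFs outside the cell and can limit or prolong their access to the receptor, and several also act apart from IGFs. In breast cancer cells IGF1R, IRS1, IGFBP2 and IGFBP4 have been described as estrogen-responsive or as higher in ER-positive cells, whereas IGFBP3 has been described as higher in ER-negative cells. HSD17B14 encodes a dehydrogenase that can oxidise estradiol to estrone.

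Promoter sequences from RefSeq (GRCh38.p14, 250 bases before to 50 after each annotated start) matched 8 of the 9 genes, all but IGFBP7, with 10 entries, since IGFBP2 had 3 annotated starts. Those of IGFBP2 and IGFBP4 are shown because these were the genes whose signal passed the test for a change with the plasmid. The first 2 IGFBP2 windows lie on chromosome 2, plus strand, at chr2:216632578-216632877 and chr2:216633170-216633469, and the IGFBP4 window lies on chromosome 17, plus strand, at chr17:40443200-40443499. Capitals mark matches on either strand to the GC box GGGCGG, the TATA box TATAAA and the estrogen receptor motif AGGTCA.
IGFBP2, first start: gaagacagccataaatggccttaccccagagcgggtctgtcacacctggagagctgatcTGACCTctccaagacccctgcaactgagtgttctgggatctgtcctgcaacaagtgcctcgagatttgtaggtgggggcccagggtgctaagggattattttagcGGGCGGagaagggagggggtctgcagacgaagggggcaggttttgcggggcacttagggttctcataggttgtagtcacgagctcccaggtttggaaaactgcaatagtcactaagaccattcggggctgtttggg
IGFBP2, second start: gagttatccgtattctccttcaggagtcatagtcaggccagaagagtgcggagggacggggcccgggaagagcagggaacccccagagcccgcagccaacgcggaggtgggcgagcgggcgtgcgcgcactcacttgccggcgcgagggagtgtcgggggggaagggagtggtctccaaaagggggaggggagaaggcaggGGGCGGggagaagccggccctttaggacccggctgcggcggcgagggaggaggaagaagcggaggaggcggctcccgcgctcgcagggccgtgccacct
IGFBP4: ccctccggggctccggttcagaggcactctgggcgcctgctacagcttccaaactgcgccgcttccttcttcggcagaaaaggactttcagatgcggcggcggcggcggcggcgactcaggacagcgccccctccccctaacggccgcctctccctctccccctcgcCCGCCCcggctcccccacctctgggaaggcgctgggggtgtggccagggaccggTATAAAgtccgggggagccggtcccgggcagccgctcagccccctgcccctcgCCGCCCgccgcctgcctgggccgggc
IGFBP4 held 2 GC boxes and a TATA box, the first IGFBP2 start 1 GC box and 1 AGGTCA, and the second IGFBP2 start 1 GC box. A GC box was in 8 of the 10 windows and in 45% of 35116 RefSeq promoters, the TATA box in 1 of 10 (11.5% of all) and AGGTCA in 1 of 10 (13.8% of all). The full estrogen response element GGTCANNNTGACC, which can overlap AGGTCA, and the interferon-stimulated response element GAAANNGAAA were in 0 of the 10 windows (0.057% and 3.57% of all). These matches describe the letters only.

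**Figure D1:**
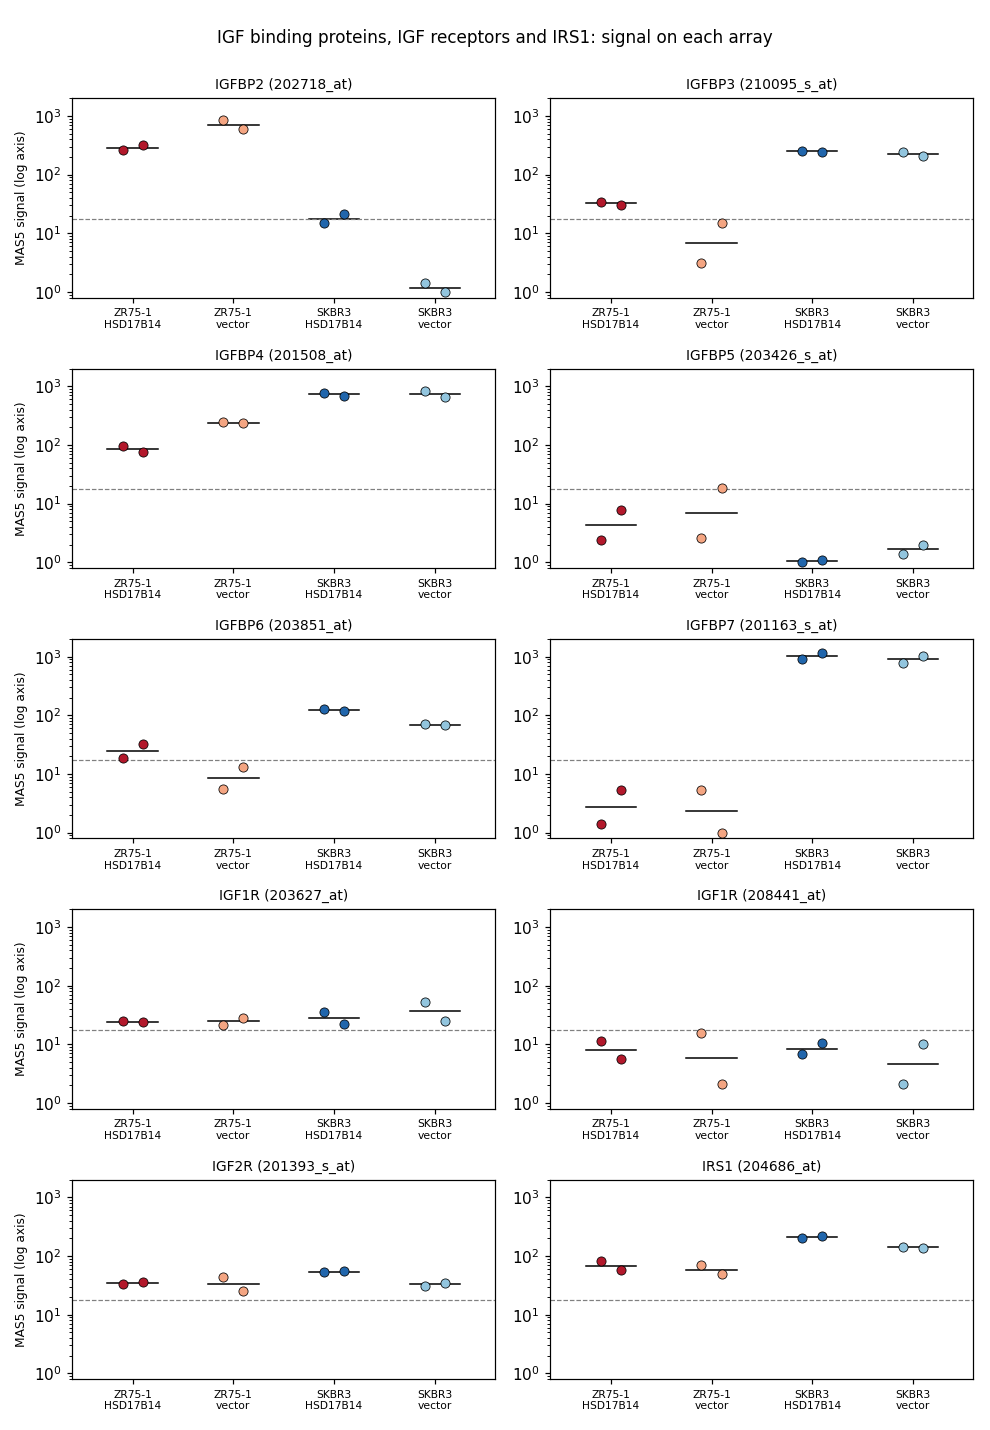
MAS5 signal (log axis) of each of the 10 probe sets on each of the 8 arrays, 2 points per group, with a bar at the geometric mean, signals under 1 drawn at 1 and a dashed line at 17.6, the floor used for bounds. IGFBP7 ran from 768.8 to 1163 on the SKBR3-labelled arrays and from 0.6 to 5.4 on the ZR75-1 arrays, IGFBP2 was far higher in ZR75-1, and the 2 IGF1R probe sets stayed low in both lines.

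With the HSD17B14 plasmid, IGFBP4 was called lower in ZR75-1 cells and IGFBP2 higher in SKBR3-labelled cells, while no receptor or docking gene passed in either line. The IGFBP2 call rests mostly on signals under the floor given below, and it was lost when these were raised to that floor. In ZR75-1, 1 of the 8 tested probe sets fell and 0 rose, where 0.784% of all 6251 tested probe sets fell and 0.736% rose. In SKBR3-labelled cells 1 of 8 was called higher and 0 lower, where 0.944% of all were called higher and 0.048% lower. At an unadjusted p under 0.05 the ZR75-1 counts were 2 higher and 2 lower and the SKBR3-labelled counts 2 higher and 0 lower, where in either direction 18% of all probe sets in ZR75-1 and 8.78% in SKBR3-labelled cells were under it. A call needed an adjusted p under 0.05 from limma over all tested probe sets. The floor of 17.6 used for bounds is the 40th percentile of the array where that percentile stood highest. A ± after a log2 value is the standard error from limma (n = 2 arrays per group).

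IGFBP4 encodes a binding protein that mostly restrains IGF action until it is cleaved by the protease PAPPA. Its signal was 95.4 and 75.5 in ZR75-1 cells with HSD17B14, against 247.4 and 234.7 with vector, so the groups did not overlap. The means were 85.4 ± 14.1 with HSD17B14 and 241 ± 8.98 with vector (SD, n = 2 each), a log2 change of -1.51 ± 0.17 or 2.84-fold lower (limma adjusted p = 0.00371). By p-value it ranked 3 among all tested probe sets. In SKBR3-labelled cells it was 782.4 and 680.3 with HSD17B14, against 817.8 and 668.1 with vector, and the groups overlapped. The log2 change there was -0.02, with a 95% interval from -0.39 to 0.35 (limma adjusted p = 0.997). The effect in ZR75-1 minus that in SKBR3-labelled cells was -1.49 ± 0.24 (adjusted p = 0.0204), which passed the test. That call was lost in 5 of the 8 fits that left out 1 array (adjusted p between 0.0503 and 0.166), with median centring (0.154), with signals raised to the floor (0.0801), with the signal-independent prior (0.264) and with the actin covariate described next (0.996). Averaged over both lines, the change was -0.76 ± 0.12 (adjusted p = 0.00564).

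RNA integrity readings differed between the ZR75-1 groups. The actin 3'/5' signal ratio, which is higher where RNA is more degraded, was 2.83 and 2.66 with HSD17B14, against 2.03 and 2.02 with vector, whereas the GAPDH ratio was 0.896 and 0.883 with HSD17B14, against 1.08 and 1.04 with vector. The actin ratio separated the plasmid groups of ZR75-1, so ratio and plasmid can hardly be told apart there. HSD17B14 itself did not pass in ZR75-1 with that covariate (4.62, limma adjusted p = 0.44). With the actin ratio as a covariate the IGFBP4 change in ZR75-1 was -1.54, with an adjusted p of 0.229, and with a prior variance that did not depend on signal the adjusted p was 0.0947. Leaving out any 1 of the 8 arrays gave changes between -1.67 and -1.34 with adjusted p between 0.00599 and 0.0213.

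IGFBP2, a binding protein with an RGD motif that is often abundant in breast cancer cells, had a signal of 14.8 and 21.4 in SKBR3-labelled cells with HSD17B14, against 1.4 and 0.7 with vector. The fitted log2 change was 3.91 ± 0.36 (limma adjusted p = 0.000129), but both vector signals and 1 of the 2 HSD17B14 signals (14.8) lay under the floor of 17.6, where signals have no order here. The bound of at least 1.01-fold against that floor takes the mean of both HSD17B14 arrays, and only the array at 21.4 was itself above it. When every signal under the floor was raised to it, the change was 0.14 with an adjusted p of 0.935, and with 32 added to each signal it was 0.60 with an adjusted p of 0.191. Fitted on that line alone, its adjusted p was 0.223.

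In ZR75-1 cells IGFBP2 was 263.4 and 313.1 with HSD17B14, against 839.1 and 598.3 with vector. The groups did not overlap, and the means were 288 ± 35.1 with HSD17B14 and 719 ± 170 with vector (SD, n = 2 each). The log2 change of -1.30 ± 0.36 had an adjusted p of 0.0843 in limma and did not pass. It did pass with 32 added to each signal, where the change was -1.21 and the adjusted p 0.00134. IGFBP2 was thus lower on both HSD17B14 arrays of ZR75-1, while in SKBR3-labelled cells 1 of the 2 HSD17B14 arrays stood above the floor.

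The difference of these effects, ZR75-1 minus SKBR3-labelled, was -5.21 ± 0.50 (adjusted p = 0.00111). With signals raised to the floor it was -1.44 (adjusted p = 0.135). IGFBP2 and IGFBP4 made up 2 of 8 probe sets with a more negative effect in ZR75-1, against 0.56% of all, and 0 of 8 had a more positive one, against 0.064% of all. For the change averaged over both lines, IGFBP2 was the 1 of 8 called higher (1.22% of all) and IGFBP4 the 1 of 8 called lower (0.288% of all). The averaged IGFBP2 value of 1.30 ± 0.25 (adjusted p = 0.0236) joins changes of opposite sign and rests on the signals under the floor: with these raised to it the average was -0.58 (adjusted p = 0.168).

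**Figure D2:**
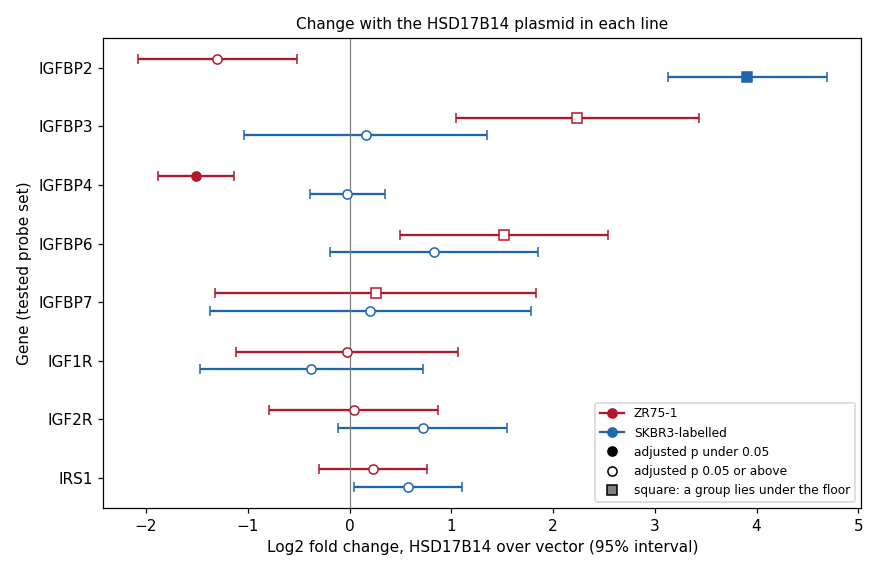
Log2 change with the HSD17B14 plasmid over vector for each tested gene in ZR75-1 and SKBR3-labelled cells, with 95% intervals from limma, filled symbols for adjusted p under 0.05 and squares where a group lay under the floor. IGFBP4 in ZR75-1 (-1.51) and IGFBP2 in SKBR3-labelled cells (3.91) are the filled symbols.

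IGFBP3, the main IGF carrier in serum and itself able to restrain growth, had a signal of 33.9 and 30.6 in ZR75-1 cells with HSD17B14, against 3.1 and 15 with vector. Both vector signals were under the floor, so the difference was at least 1.83-fold, and its fitted value of 2.24 ± 0.54 had an adjusted p of 0.0646 in limma. It passed without vector array 2, where the value was 3.38 and the adjusted p 0.000792, and with 32 added to each signal, where they were 0.66 and 0.0458. In SKBR3-labelled cells IGFBP3 was 256.6 and 240.9 with HSD17B14, against 237.8 and 209.5 with vector, a log2 change of 0.16 with an interval from -1.04 to 1.35. The 2 groups did not overlap, but the change was small beside its error.

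IGFBP6 prefers IGF2 over IGF1. Its signal was 18.7 and 32.4 in ZR75-1 cells with HSD17B14, against 5.6 and 13.2 with vector, at least 1.4-fold higher with an adjusted p of 0.111 in limma. In SKBR3-labelled cells it was 129.3 and 118.4 with HSD17B14, against 72.1 and 67.3 with vector. That was 1.78-fold, or 0.83 ± 0.46 on the log2 scale, with an adjusted p of 0.692. IGFBP6 was thus higher on both HSD17B14 arrays of each line, without passing the test in either.

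IGFBP7, which binds IGFs weakly and is deposited in the matrix, was 1.4 and 5.4 in ZR75-1 cells with HSD17B14, against 5.3 and 0.6 with vector, all under the floor. In SKBR3-labelled cells it was 911.7 and 1163 with HSD17B14, against 768.8 and 1043 with vector, and the groups overlapped. The log2 change there was 0.20, with an interval from -1.37 to 1.78. IGFBP5, whose gene lies beside IGFBP2 on chromosome 2, was 2.4 and 7.7 in ZR75-1 cells with HSD17B14, against 2.6 and 18.4 with vector. In SKBR3-labelled cells IGFBP5 was 0.6 and 1.1 with HSD17B14, against 1.4 and 2.0 with vector. Only 1 of the 8 arrays carried it above the floor, so no level or change was measured.

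The receptors had low signals in both lines. IGF1R was 24.6 and 23.8 in ZR75-1 cells with HSD17B14, against 21.3 and 28.4 with vector, and 35.7 and 22.1 in SKBR3-labelled cells with HSD17B14, against 53.0 and 25.1 with vector. Its log2 change was -0.02 in ZR75-1, with an interval from -1.12 to 1.07, and -0.38 in SKBR3-labelled cells, with an interval from -1.47 to 0.72. The second IGF1R probe set ran from 2.1 to 15.8 over the 8 arrays and was above the floor on none. The arrays therefore leave room for an IGF1R change of 2-fold in either direction in ZR75-1.

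IGF2R was 33.5 and 35.9 in ZR75-1 cells with HSD17B14, against 44.3 and 25.8 with vector, and the groups overlapped. In SKBR3-labelled cells it was 53.5 and 54.7 with HSD17B14, against 31.1 and 34.8 with vector. These did not overlap, yet the log2 change of 0.72 had an interval from -0.11 to 1.55 and an adjusted p of 0.644 in limma. IRS1, the docking protein that links the receptor to PI3K, was 81.6 and 57.6 in ZR75-1 cells with HSD17B14, against 69.7 and 49.1 with vector. In SKBR3-labelled cells IRS1 was 202.7 and 216.1 with HSD17B14, against 145.1 and 136.1 with vector, 1.49-fold or 0.57 ± 0.24 on the log2 scale, with an adjusted p of 0.527.

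Across the 8 tested genes the plasmid groups of SKBR3-labelled cells did not overlap, with HSD17B14 higher, for IGFBP2, IGFBP3, IGFBP6, IGF2R and IRS1, which is 5 of 8 where 19.5% of all probe sets did the same. For IGFBP2 this sets 14.8 against 1.4 and 0.7, all under the floor, so that separation was not measured. In ZR75-1 the groups did not overlap with HSD17B14 higher for IGFBP3 and IGFBP6, 2 of 8 against 20.7% of all. With HSD17B14 lower they were IGFBP2 and IGFBP4, 2 of 8 against 26.3% of all. The median log2 change of the 8 was 0.13 in ZR75-1, against -0.04 over all probe sets, and 0.39 in SKBR3-labelled cells, against -0.01 over all. Of these 9 separations, those of IGFBP4 in ZR75-1 and IGFBP2 in SKBR3-labelled cells passed the test.

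The lines differed in more of these genes than the plasmid groups within them. The comparison was made between the HSD17B14 groups and again between the vector groups, and the same 6 of the 8 genes passed both. Both comparisons came from the same fit, whose estimate of spread is shared over all 8 arrays, so they are not independent. IGFBP2 was higher in ZR75-1, and IGFBP3, IGFBP4, IGFBP6, IGFBP7 and IRS1 were lower. On the HSD17B14 arrays that was 1 of 8 higher and 5 of 8 lower, where 15.1% of all probe sets were higher and 18.1% lower. On the vector arrays it was again 1 and 5 of 8, where 19.6% were higher and 20.7% lower. The median log2 difference of the 8 genes was -1.97 on the HSD17B14 arrays, against -0.06 over all probe sets, and -1.44 on the vector arrays, against -0.04 over all.

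IGFBP7 had the widest gap among the 5 genes that were lower in ZR75-1. Its 4 ZR75-1 signals ran from 0.6 to 5.4 and its 4 SKBR3-labelled signals from 768.8 to 1163. ZR75-1 was at least 58.5-fold lower on the HSD17B14 arrays (limma adjusted p = 4.29e-06) and at least 50.9-fold lower on the vector arrays (adjusted p = 3.05e-06). VIM showed a gap of the same direction, with 25.7 and 0.4 in ZR75-1 cells with HSD17B14, against 3676 and 3646 in SKBR3-labelled cells with HSD17B14. COL1A1, another stromal marker, went the other way. The part of such marker differences in the IGFBP7 result was not tested.

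IGFBP2 ran the other way. It was 16.1-fold higher in ZR75-1 than in SKBR3-labelled cells on the HSD17B14 arrays (log2 4.01 ± 0.36, limma adjusted p = 6.5e-06) and at least 40.3-fold higher on the vector arrays (adjusted p = 1.12e-08). The sizes of these gaps cannot be set against each other, since the vector value is a bound and an SKBR3-labelled HSD17B14 signal (14.8) lay under the floor. Their fitted difference is the difference of plasmid effects given above, which was -1.44 with signals raised to the floor (limma adjusted p = 0.135).

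IGFBP3 was 7.72-fold lower in ZR75-1 on the HSD17B14 arrays (log2 -2.95 ± 0.54, limma adjusted p = 0.00136) and at least 12.7-fold lower on the vector arrays (adjusted p = 2.15e-05). IGFBP4 was 8.6-fold lower on the HSD17B14 arrays (log2 -3.10 ± 0.17, adjusted p = 1.47e-07) and 3.07-fold lower on the vector arrays (log2 -1.62 ± 0.17, adjusted p = 1.65e-05). IGFBP4 was thus lower in the line labelled ER-positive with either plasmid. IGFBP6 was 5.03-fold lower on the HSD17B14 arrays (adjusted p = 0.00225) and at least 3.96-fold lower on the vector arrays (adjusted p = 0.000309).

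IRS1 was 3.05-fold lower in ZR75-1 on the HSD17B14 arrays (log2 -1.61 ± 0.24, limma adjusted p = 0.000329) and 2.4-fold lower on the vector arrays (log2 -1.26 ± 0.24, adjusted p = 0.00144). On the vector arrays the ratio for actin stood at 2.03 and 2.02 in ZR75-1, against 3.6 and 3.0 in SKBR3-labelled cells. With that ratio as a covariate the vector-array differences of IRS1 and IGFBP6 were -0.97 and -3.31 on the log2 scale, with adjusted p of 0.349 and 0.0844, and the other 4 genes still passed.

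The receptors showed no line difference that passed. For IGF1R the log2 difference was -0.22 on the HSD17B14 arrays, with an interval from -1.31 to 0.88, and -0.57 on the vector arrays, with an interval from -1.67 to 0.53. For IGF2R it was -0.64, from -1.47 to 0.19, on the HSD17B14 arrays and 0.04, from -0.79 to 0.87, on the vector arrays. On the HSD17B14 arrays the IGF2R groups did not overlap, with ZR75-1 lower (33.5 and 35.9, against 53.5 and 54.7), as for 37.3% of all tested probe sets. The tested binding proteins and IRS1 therefore passed the test between the lines where the receptor probe sets did not. The difference between these groups of genes was not itself tested.

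**Figure D3:**
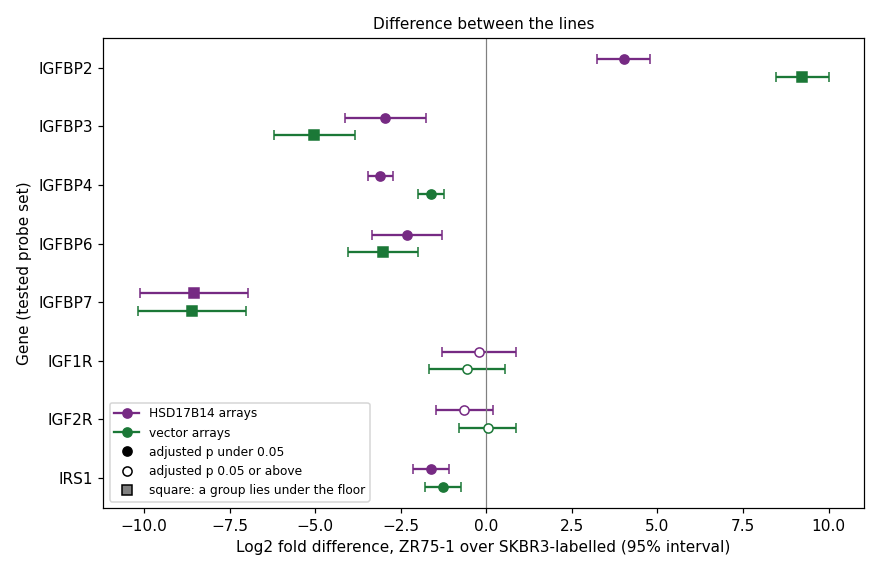
Log2 difference of ZR75-1 over SKBR3-labelled cells for each tested gene on the HSD17B14 arrays and, separately, on the vector arrays, with 95% intervals from limma, filled symbols for adjusted p under 0.05 and squares where a group lay under the floor. IGFBP2 lies on the right, 5 genes lie on the left in both comparisons, and the IGF1R and IGF2R intervals cross 0.

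Over the 4 groups IGFBP2 had its highest mean in ZR75-1 with vector (719), then ZR75-1 with HSD17B14 (288), SKBR3-labelled with HSD17B14 (18.1) and SKBR3-labelled with vector (1.05), the last lying wholly under the floor. For IGFBP4 the SKBR3-labelled means of 731 ± 72.2 with HSD17B14 and 743 ± 106 with vector did not differ beyond their spread, and both lay above the ZR75-1 means. IGFBP6 averaged 124 ± 7.71 with HSD17B14 and 69.7 ± 3.39 with vector in SKBR3-labelled cells (SD, n = 2 each), and 25.5 ± 9.69 with HSD17B14 and 9.40 ± 5.37 with vector in ZR75-1. IRS1 followed the same order of groups, from 209 ± 9.48 in SKBR3-labelled cells with HSD17B14 and 141 ± 6.36 with vector to 69.6 ± 17.0 in ZR75-1 with HSD17B14 and 59.4 ± 14.6 with vector, where the ZR75-1 pair overlapped.

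By the distance between log2 profiles over the 8 arrays, each centred on its mean, the genes nearest to IGFBP2 were S100A9 (0.93), MUC1 (1.22) and SPINT1 (1.29). Nearest to IGFBP4 were SULT1B1 (0.27), HMGA1 (0.30) and INPP1 (0.36). Those nearest to IGFBP7 were PTX3 (0.83), CCN2 (0.92) and CXCL8 (0.93), and to IRS1 they were RPH3AL (0.15), TNIP1 (0.17) and GRB10 (0.18). For IGFBP3 they were ACSL5 (0.47), HHEX (0.58) and SGK1 (0.60), and for IGFBP6 ADH5 (0.39), ENTPD3 (0.43) and GLRX (0.44). The distance is a root mean square in log2 units and follows the line difference above all, so it describes these arrays only.

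The rest of the pathway was read from lists of ligands and other receptors, IGFBP proteases, downstream signalling genes, IGFBP-related genes and estrogen receptor context genes. The line counts below stand beside 15.1% of all probe sets higher and 18.1% lower in ZR75-1 on the HSD17B14 arrays, and 19.6% higher and 20.7% lower on the vector arrays. Plasmid counts stand beside 0.736% higher and 0.784% lower in ZR75-1, and 0.944% higher and 0.048% lower in SKBR3-labelled cells. At an unadjusted p under 0.05 in limma the shares, in either direction, were 18% in ZR75-1 and 8.78% in SKBR3-labelled cells. Of the 5 tested ligand, receptor and docking genes, 0 passed for the plasmid in either line by limma, and 0 had an unadjusted p under 0.05. IGFBP1 and IRS2 passed between the lines and both were lower in ZR75-1. IGFBP1, which lies beside IGFBP3 on chromosome 7, was 1.9 and 5.7 in ZR75-1 and 250.7 and 253 in SKBR3-labelled cells on the HSD17B14 arrays, at least 14.3-fold lower (limma adjusted p = 1.13e-05). IRS2, a docking protein related to IRS1, was 28.1 and 29.5 in ZR75-1 and 175.8 and 210.9 in SKBR3-labelled cells on the HSD17B14 arrays, with a log2 difference of -2.74 (adjusted p = 4.83e-06). IRS1 and IRS2 were thus both lower in ZR75-1, whereas the third docking gene tested, IRS4, ran from 5.6 to 25.9, mostly under the floor, with overlapping groups (adjusted p = 0.81 on the HSD17B14 arrays and 0.559 on the vector arrays). The insulin receptor gene INSR, at 3.3 to 34.6, did not pass in any comparison, and the IGF1 and INS probe sets were not above the floor on any array.

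Among 12 tested genes for IGFBP proteases and their modulators, 0 passed for the plasmid (by limma at an unadjusted p under 0.05, 1 higher and 1 lower in each line), and 3 were higher and 6 lower in ZR75-1 on either set of arrays. CTSD, the lysosomal protease cathepsin D, was 410.9 and 366.8 in ZR75-1 and 77.2 and 68.7 in SKBR3-labelled cells on the HSD17B14 arrays, a log2 difference of 2.41 (limma adjusted p = 8.02e-05). The plasminogen activator genes PLAU and PLAT were at least 23.7-fold and at least 31-fold lower in ZR75-1 on the HSD17B14 arrays (adjusted p = 7.97e-06 and 0.000308).

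Of 28 tested downstream signalling genes, 0 rose and 2 fell with HSD17B14 in ZR75-1, and 0 passed in SKBR3-labelled cells, with 1 higher and 9 lower in ZR75-1 and 2 higher and 0 lower in SKBR3-labelled cells at an unadjusted p under 0.05. AKT1, a kinase downstream of PI3K, was 113.4 and 125.4 with HSD17B14, against 237.1 and 268.4 with vector, a log2 change of -1.08 ± 0.23 (limma adjusted p = 0.0427). HRAS, a GTPase upstream of the MAPK cascade, was 54.3 and 47.5 with HSD17B14, against 148.5 and 116.4 with vector, a change of -1.37 ± 0.25 (adjusted p = 0.0304). In neither gene did the groups overlap. Neither call held with the actin covariate (-0.78 with an adjusted p of 0.587 for AKT1, and -1.63 with an adjusted p of 0.413 for HRAS) or without any 1 of the 4 ZR75-1 arrays or either SKBR3-labelled HSD17B14 array, where 0 signalling genes passed. Between the lines 5 signalling genes were higher and 5 lower in ZR75-1 on the HSD17B14 arrays, and 9 were higher and 6 lower on the vector arrays, with those on the HSD17B14 arrays near the shares over all probe sets. The translation regulators RPS6KB2 and EIF4EBP1 were higher in ZR75-1 on the HSD17B14 arrays, with log2 differences of 2.90 and 1.29, and the cytokine signalling inhibitor SOCS2 was lower at -3.58.

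The 6 tested IGFBP-related genes were CCN1, CCN2, CCN3 and CCN5, with the IGF2 mRNA-binding protein genes IGF2BP2 and IGF2BP3. For the plasmid 0 passed, and 1, CCN3 in ZR75-1, had an unadjusted p under 0.05 in limma. CCN3 was 30.9 and 7.2 with HSD17B14 there, against 1.5 and 4.7 with vector, and only 30.9 was above the floor. Between the lines 1 was higher and 4 lower in ZR75-1 on the HSD17B14 arrays. On the vector arrays 1 was higher and 5 lower, the lower ones including IGF2BP2 and IGF2BP3. CCN1 and CCN2, matricellular proteins that share the IGFBP-like domain, were lower in ZR75-1, CCN1 with a log2 difference of -4.11 on the HSD17B14 arrays (limma adjusted p = 2.86e-07) and CCN2 at least 26.5-fold lower (adjusted p = 0.000141). CCN5 went the other way, at least 2.6-fold higher (adjusted p = 0.00315). All 8 tested estrogen receptor context genes were higher in ZR75-1 on the vector arrays and 7 of 8 on the HSD17B14 arrays, with 0 passing for the plasmid (at an unadjusted p under 0.05, 1 higher and 1 lower in ZR75-1 and 0 in SKBR3-labelled cells). ESR1 itself was 194.5 and 224.4 in ZR75-1 cells with HSD17B14, against 341.6 and 225 with vector, and between 14.9 and 24.6 in SKBR3-labelled cells.

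**Figure D4:**
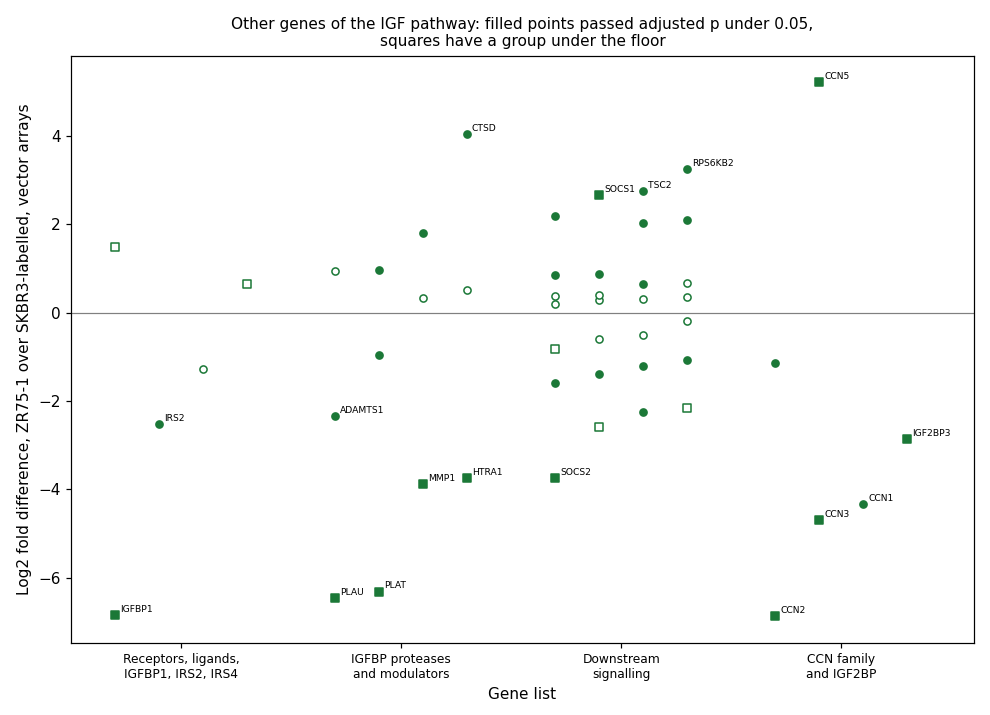
Log2 difference of ZR75-1 over SKBR3-labelled cells on the vector arrays for the tested genes of 4 pathway lists, 1 symbol per gene, filled for adjusted p under 0.05 and square where a group lay under the floor, so that the fitted value there is no measured fold. IGFBP1 and IRS2 lie below 0 with PLAU, PLAT, CCN1 and CCN2, and CTSD and RPS6KB2 lie above it.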

How the data were processed

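Total RNA of 8 samples was measured on Affymetrix HG-Focus arrays. The deposited values are signal intensities on a linear scale, 1 per probe set, and per the submitters' processing notes the software was MAS5. No detection calls were used. Of 8746 non-control probe sets, 7840 carry 1 gene symbol. IGF2 is not named because its probe set carries several. Probe sets ending in _s_at can match more than one transcript.

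Values under 1 were raised to 1 and log2 was taken. Probe sets above their array's 40th percentile (12.1 to 17.6) on at least 2 arrays were tested, 6251 in all. limma 3.58.1 in R 4.3.3 fitted 4 group means with eBayes and a prior variance that follows the signal (degrees of freedom 4 residual, 7.39 prior), with Benjamini-Hochberg adjustment over all tested probe sets. The number of arrays limits the precision. Where a group lay wholly under 17.6, a fold was given as a bound against that floor. Genes beyond the 9 were named from those that passed with the largest test statistic, up to 4 per list and comparison, and neighbours as the 3 nearest profiles. Not every such gene was named: of the proteases, ADAMTS1 (lower in ZR75-1) and CTSB (higher in ZR75-1) were left out. CCN3 was named for an unadjusted p, and IGF2BP2 and IGF2BP3 to show what their list held. INSR, IRS4 and VIM were named after their values were seen. The members and lists were chosen with earlier results of these data known. The code was tested on simulated data. Figures used matplotlib 3.10.9 in Python 3.11.15.

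Alternatives were another offset, floor, filter, scaling and prior, fits with a replicate, spike-in or actin term, each line alone, and leaving out each array in turn.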

Additional observations from a re-analysis of the deposited data

Results flagged for a closer look

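The plasmid's effect was called different between the lines for 2 of the 8 tested genes, by the interaction term in limma, against 0.624% of all tested probe sets. The IGFBP2 call was lost with signals raised to the floor, where the difference was -1.44 (limma adjusted p = 0.135). For IGFBP4 the effect in ZR75-1 minus that in SKBR3-labelled cells was -1.49 (adjusted p = 0.0204), which passed in 3 of the 8 fits that left out 1 array and under 6 of 10 other alternatives. For IGFBP2 it was -5.21 (adjusted p = 0.00111), with the SKBR3-labelled vector arrays under the floor, and it passed in all 8 such fits and under 7 of the 10.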

How the results depend on the processing

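The 6 line differences were called in all leave-one-out fits, with 6 calls in each, and were lost only with the actin 3'/5' covariate, for IGFBP6 and IRS1 on the vector arrays. Plasmid calls among the 8 genes moved more. In ZR75-1 the count of 1 became 3 with 32 added to each signal, 2 with the line fitted alone and 0 with the signal-independent prior or the actin covariate, and ran from 1 to 2 when 1 array was left out. In SKBR3-labelled cells the count of 1 became 0 with the offset, the common floor or the line fitted alone, and stayed at 1 in each leave-one-out fit. For the averaged change the count of 2 became 0 with the floor or the prior and 1 with the spike-in block or the actin covariate, and ran from 1 to 3 by array. For the difference between lines the count of 2 became 1 with median centring and 0 with the floor, the prior or the actin covariate, and ran from 1 to 3 by array. The averaged IGFBP2 value changed sign, to -0.31 with the offset and -0.58 with the floor, neither passing. The IGFBP4 difference lost its call without ZR75-1 HSD17B14 array 2, ZR75-1 vector array 1, either SKBR3-labelled HSD17B14 array or SKBR3-labelled vector array 2, with adjusted p between 0.0503 and 0.166, and the averaged IGFBP2 call was lost without any 1 of the ZR75-1 arrays or SKBR3-labelled HSD17B14 array 2. Leaving out SKBR3-labelled vector array 1 or 2 let IGFBP2 pass in ZR75-1, with adjusted p of 0.0476 and 0.0451. Without ZR75-1 vector array 2, IGFBP3 passed for the averaged change (1.77) and the difference (3.22), and IGFBP6 for the averaged change (1.48, adjusted p of 0.0321). With the offset the averaged change again gave 2 calls, 1 of them shared: IGFBP6 (0.54, adjusted p of 0.0376) passed in place of IGFBP2.

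Of the 28 signalling genes, between 0 and 4 passed in ZR75-1 across the alternatives, and of the 12 protease genes between 0 and 2. The actin covariate also ended the vector-array calls of PLAT, SOCS2 and CCN5. With that covariate the HSD17B14 rise in ZR75-1 itself did not pass (4.62, limma adjusted p of 0.44). Nor did it with the signal-independent prior (0.196) or the spike-in block (0.0847). In SKBR3-labelled cells the HSD17B14 rise did not pass with the signal-independent prior (0.0602). The HSD17B14 rise in ZR75-1 did not pass without either ZR75-1 HSD17B14 array or either SKBR3-labelled HSD17B14 array, with adjusted p between 0.0706 and 0.113.

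Median centring moved all ZR75-1 plasmid changes by 0.20 and those of SKBR3-labelled cells by 0.07. Counts over all probe sets were 95 in ZR75-1 (1 to 262 across alternatives), 62 in SKBR3-labelled cells (9 to 125), 94 for the average (12 to 221), 39 for the difference (0 to 67), 2074 between lines on HSD17B14 arrays (1357 to 2284) and 2516 on vector arrays (571 to 2775).

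The labels tie the replicate numbers to nothing shared. Deviations from the group mean of the arrays numbered 1 correlated at -0.04 between the plasmid groups in either line, over 6251 probe sets. With 2 arrays per group the arrays numbered 2 only mirror these deviations, so the correlation cannot show whether the arrays were paired. With the replicate block 2 of the 8 genes were called in ZR75-1, IGFBP3 being added with an adjusted p of 0.0167. With 2 arrays per group, genes under the floor have no measured fold.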

Other observations

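MUC1, an epithelial mucin gene and one of the nearest profiles to IGFBP2, fell with HSD17B14 in ZR75-1 by 1.29 ± 0.26 on the log2 scale (limma adjusted p = 0.0379). Its effect in ZR75-1 minus that in SKBR3-labelled cells was -2.38 ± 0.37 (adjusted p = 0.0176). The sign it shares with IGFBP2 follows largely from choosing MUC1 by nearness over these same arrays, so it lends no support. Neither call held with median centring (adjusted p of 0.138 and 0.154), quantile normalization (0.0906 and 0.0755) or signals raised to the floor (0.0524 and 0.0811). Both were also lost with the signal-independent prior (0.212 and 0.234) and the actin covariate (0.587 and 0.996). The fall in ZR75-1 was lost as well without the filter (0.0554) and with the spike-in block (0.0853). Both MUC1 signals of SKBR3-labelled cells with vector (9.5 and 15.1) lay under the floor.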
